A study of Mus musculus with 24 samples.

Results

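The genes described here carry the names of subunits of respiratory complex I, the NADH dehydrogenase of the mitochondrial inner membrane. Ndufa4 and Ndufa4l2 fit the names but are not assigned to a part of this enzyme, as described below. All were chosen by a rule on names. It took every gene whose single symbol in the platform's probe annotation begins with Nduf, then a, b, c, s or v, then a number. The rule found 33 genes among the 22180 genes with a value, and used no measurement. The choice of this gene family and of the contrasts was made with earlier results of these data known. The hearts came from male mice homozygous for the Clock mutation, labelled Clock delta 19/delta 19, at 8 weeks of age under 12 h of light and 12 h of darkness. Whole myocardium was collected at ZT03, ZT07, ZT11, ZT15, ZT19 and ZT23, where ZT is zeitgeber time, in hours since the lights came on. Each time point had 4 biological replicates, which the labels number, and each heart had its own single-colour array, so there were 24 arrays. Every heart carried the mutation, and hearts without it were not analysed here. Thus nothing below compares genotypes.

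Complex I takes electrons from NADH, passes them through a flavin and a chain of iron-sulphur clusters to ubiquinone, and pumps protons across the inner membrane. Its N module binds NADH, its Q module reduces ubiquinone, and its membrane arm, with a proximal and a distal part, pumps the protons. The core subunits carry out the chemistry, the accessory subunits surround them, and part of the core is encoded by the mitochondrial genome. Heart muscle is rich in mitochondria and depends on this enzyme for most of its ATP. Clock is a transcription factor of the circadian oscillator, which binds E-box sequences together with Bmal1, and the delta 19 allele gives a protein that lacks transactivation activity.

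A time-of-day difference in complex I genes was found for a minority of members, and it ran in opposite directions. Between early and late light, 1 member was higher at ZT03 (Ndufs1) and 5 were lower (Ndufa2, Ndufa8, Ndufa4l2, Ndufb10 and Ndufv1) by limma's moderated contrast, at an adjusted p below 0.05 over all 22180 genes. These 6 of 33 members, with the unassigned Ndufa4l2 included, make 18.2%, beside 2.29% of all genes. In the direction of ZT03 above ZT11 the members' share was 3.03% beside 1.83% of all genes, and in the opposite direction it was 15.2% beside 0.451%. Ndufb5 was higher at ZT03 than at ZT15. The other 26 members passed none of the 5 tests made.

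Promoter windows of 3 called members are given first. Each holds 250 bases before and 50 after the annotated start in RefSeq's annotation of GRCm38.p6, 5′ to 3′ on the gene's strand. Ndufb5 (chr3:32736813-32737112, + strand, 61.0% G and C) was highest at ZT03, and Ndufv1 (chr19:4012706-4013005, - strand, 55.7%) and Ndufa8 (chr2:36049289-36049588, - strand, 58.3%) were lowest then. Capitals mark an E-box in Ndufv1 that starts at position -169 from the gene start, and a match to the NRF-1 motif in Ndufa8 that starts at -30. No searched motif was found in the Ndufb5 window. None was found either in the window of Ndufb10, a called member that was also lowest at ZT03 and is not printed.
Ndufb5: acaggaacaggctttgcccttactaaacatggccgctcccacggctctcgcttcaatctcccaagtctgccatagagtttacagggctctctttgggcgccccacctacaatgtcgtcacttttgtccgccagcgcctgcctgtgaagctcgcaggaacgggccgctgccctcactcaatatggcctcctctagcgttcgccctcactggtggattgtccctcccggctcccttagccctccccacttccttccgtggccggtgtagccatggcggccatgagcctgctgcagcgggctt
Ndufv1: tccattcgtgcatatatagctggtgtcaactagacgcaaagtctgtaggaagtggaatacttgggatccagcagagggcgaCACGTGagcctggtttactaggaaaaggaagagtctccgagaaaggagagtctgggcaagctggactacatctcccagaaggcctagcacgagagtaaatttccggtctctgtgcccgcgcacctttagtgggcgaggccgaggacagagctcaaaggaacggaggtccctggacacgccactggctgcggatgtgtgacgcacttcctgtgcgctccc
Ndufa8: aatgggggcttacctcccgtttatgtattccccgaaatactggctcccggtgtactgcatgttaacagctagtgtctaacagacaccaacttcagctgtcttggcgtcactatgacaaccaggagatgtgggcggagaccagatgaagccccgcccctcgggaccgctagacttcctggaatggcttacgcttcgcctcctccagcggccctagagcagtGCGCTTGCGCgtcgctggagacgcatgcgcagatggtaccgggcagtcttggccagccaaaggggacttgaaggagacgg
Of the 33 members, 29 had a window in the table, with 31 windows in all. Ndufa5 and Ndufa7 have overlapping pairs of windows that hold the same match, so matches are counted by gene. The letters searched, on both strands, were those of 6 motifs. The E-box CACGTG, to which the Clock protein binds, was found in 2 of 29 members (6.90%; Ndufv1 and Ndufa7) and in 8.09% of all 27025 genes with a window. The NRF-1 motif, that of a regulator of respiratory chain genes, was found in 5 (17.2%) and in 5.19% of all genes. The YY1 motif AAGATGG was found in 6 (20.7%) and 7.28%, the GABPA motif CCGGAAG in 4 (13.8%) and 9.93%, the estrogen-related receptor motif AAGGTCA in 1 (3.45%) and 5.38%, and the D-box TTATGTAA in 0 and 1.11%. Member windows had a median of 59.0% G and C, against 52.7% in all windows, and these shares were not adjusted for that. A match is a run of letters and was not tested as a binding site.

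What the authors deposited were log values, read here as log2, with each array feature set to a median of 0 over the 24 arrays. A value is therefore a difference from that gene's own middle level. The levels of different genes cannot be compared, apart from a coarse class described with the tissue markers below. Hearts of the same time point had an SD of 0.104 in the median member and 0.0869 in the median gene. No member was removed by a filter. Because whole tissue was measured, fewer cells of a type and less RNA per cell cannot be told apart.

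The profiles of all members over the 24 hearts were of several kinds. The highest of the 6 time-point means lay at ZT03 in 12 members and at ZT11 in 12, at ZT15 in 5, at ZT23 in 3, at ZT07 in 1 and at ZT19 in 0. The lowest lay at ZT03 in 11 members and at ZT23 in 8. Over all 22180 genes, ZT03 held the highest mean for 3844 and ZT11 for 4110. The lowest mean of all genes lay at ZT03 for 4759, more than at any other time point, and at ZT23 for 3427. The range of a member's time-point means had a median of 0.20, beside 0.115 for all genes. The test of any difference among time points called 3 members (9.09%; Ndufs1, Ndufb5 and Ndufa2), beside 1.48% of all genes. At an unadjusted p below 0.05 it passed 15 members (45.5%), beside 13.4% of all genes.

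**Figure D1:**
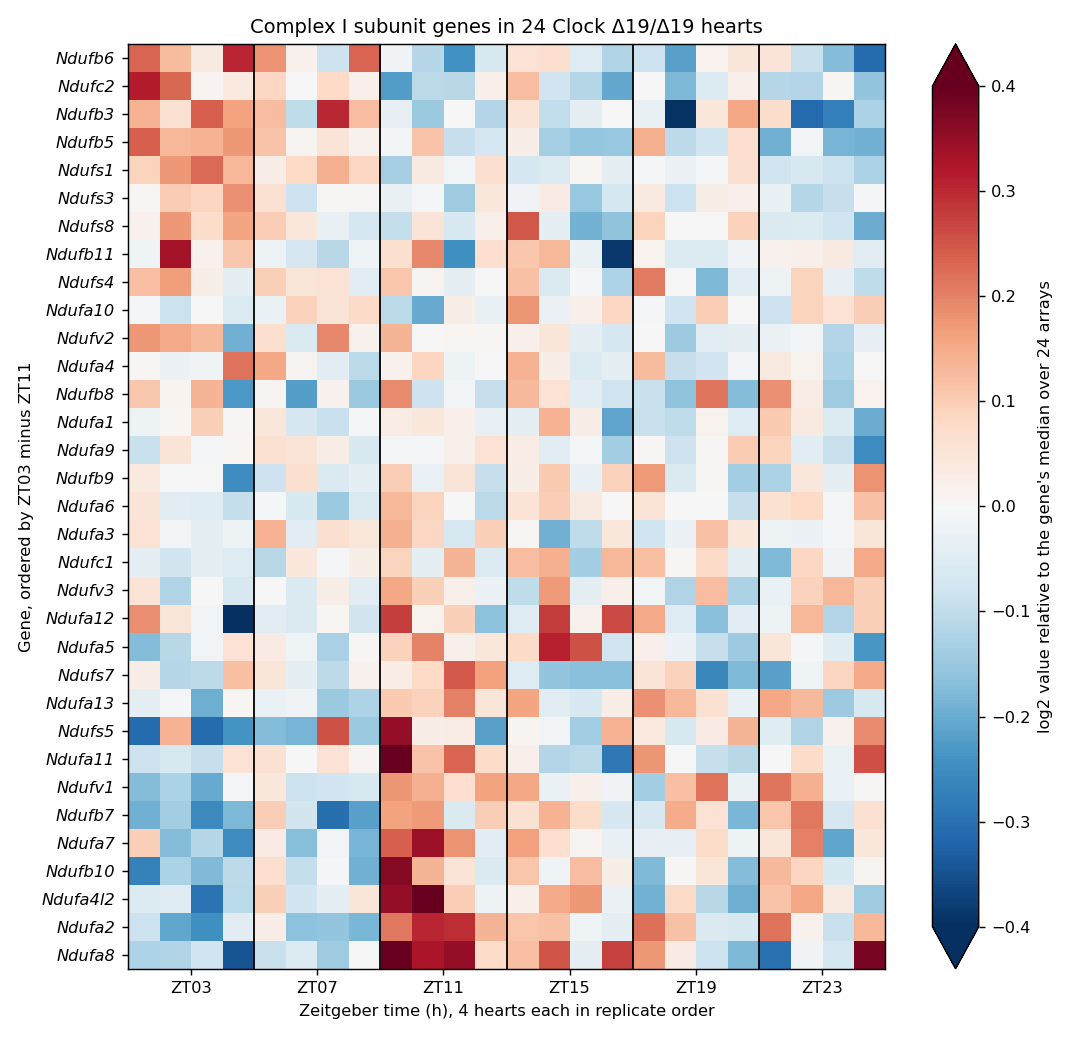
Log2 values of the 33 complex I genes relative to each gene's median, in 24 hearts grouped by zeitgeber time (columns) and ordered by the difference between ZT03 and ZT11 (rows). Genes at the top are high in the ZT03 hearts and low at ZT11, genes at the bottom the reverse, and the differences span -0.47 to 0.28.

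The N module held calls in both directions. Ndufs1 encodes its largest subunit, a core protein that holds iron-sulphur clusters. In the 4 hearts at ZT03 Ndufs1 was at 0.090, 0.17, 0.23 and 0.13, and at ZT07 it was at 0.028, 0.079, 0.14 and 0.082. At ZT11 the hearts read -0.13, 0.035, -0.012 and 0.063, and at ZT15 they read -0.066, -0.055, 0.0074 and -0.040. At ZT19 they read -0.0074, -0.024, -0.0091 and 0.063, and at ZT23 they read -0.080, -0.061, -0.085 and -0.13. Every ZT03 heart lay above every heart at ZT11, ZT15, ZT19 and ZT23, and the 4 hearts at ZT23 were all below 0. The mean fell from 0.16 ± 0.058 (SD, n = 4) at ZT03 to -0.088 ± 0.028 at ZT23, a range of 0.24 (limma's F test over all time points, adjusted p = 0.0182). ZT03 was 0.17 ± 0.038 (SE) above ZT11 (limma, adjusted p = 0.0241) and 0.19 ± 0.038 above ZT15 (limma, adjusted p = 0.0218). Ndufs1 was also the only member called between phases, at 0.12 ± 0.022 higher in light than in dark (limma, adjusted p = 0.0195). The dark-phase hearts had a median of -0.047, and 11 of the 12 hearts taken in the light exceeded it. The means were 0.16, 0.083 and -0.012 at ZT03, ZT07 and ZT11, and -0.038, 0.0056 and -0.088 at ZT15, ZT19 and ZT23. Late light (ZT11) thus lay below ZT19 in the dark.

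Ndufv1 encodes the core subunit that binds NADH and the flavin, and passes electrons on within the same module. At ZT03 its 4 hearts read -0.17, -0.13, -0.20 and -0.0049, and at ZT11 they read 0.18, 0.14, 0.069 and 0.16. The groups did not overlap: every late-light heart was above 0, and every early-light heart below it. At ZT07 the hearts read 0.043, -0.087, -0.075 and -0.062, and at ZT15 they read 0.16, -0.027, 0.020 and -0.013. At ZT19 they read -0.14, 0.12, 0.22 and -0.028, and at ZT23 they read 0.21, 0.14, -0.027 and 0.0049. The dark-phase hearts were scattered on both sides of 0. ZT03 was 0.26 ± 0.067 (SE) below ZT11, a difference of -0.26 (limma, adjusted p = 0.0396). The values of Ndufs1 minus Ndufv1 within each heart restate the opposite calls of these genes, as a description without a test, and are no separate evidence. They were 0.26, 0.30, 0.43 and 0.14 at ZT03, and -0.31, -0.11, -0.080 and -0.098 at ZT11. All 4 early-light hearts were above 0 and all 4 late-light hearts below it. Hearts of both signs were found at ZT07, from -0.016 to 0.22, and at ZT19, from -0.22 to 0.13. Every heart at ZT15 and ZT23 was below 0.

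Ndufa2 encodes an accessory subunit of the N module. Its hearts read -0.085, -0.21, -0.25 and -0.044 at ZT03, 0.027, -0.16, -0.16 and -0.18 at ZT07, and 0.21, 0.31, 0.29 and 0.14 at ZT11. At ZT15 they read 0.11, 0.12, -0.017 and -0.035, at ZT19 0.22, 0.12, -0.058 and -0.065, and at ZT23 0.22, 0.017, -0.089 and 0.13. All hearts at ZT11 lay above all hearts at ZT03 and ZT07, while the dark-phase hearts spread from -0.089 to 0.22. ZT03 minus ZT11 was -0.38 ± 0.073 (SE; limma, adjusted p = 0.00854), and the time points differed (limma's F test, adjusted p = 0.0382). ZT03 minus ZT15 was -0.19 and was not called (limma, adjusted p = 0.242).

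The N module had 9 measured members of 10 in its list. At ZT03 against ZT11, 1 was called higher (beside 1.83% of all genes) and 2 lower (beside 0.451%). The median difference of the 9 members was -0.095, beside -0.0050 for all genes. Ndufv2, which encodes the core partner of the Ndufv1 protein, differed by 0.029 ± 0.065 (SE; limma, adjusted p = 0.908). Its ZT03 hearts read 0.17, 0.15, 0.13 and -0.19, so the last stood apart from the others. Ndufa7, an accessory subunit, read -0.29 ± 0.087 and was not called (limma, adjusted p = 0.087).

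**Figure D2:**
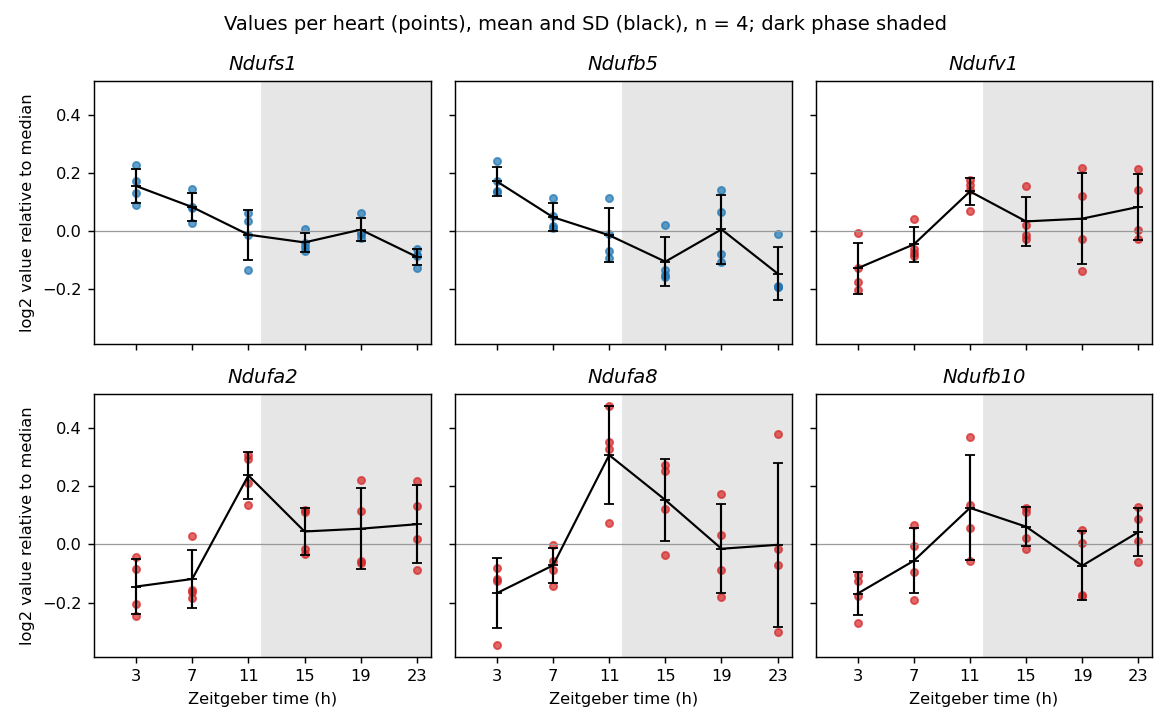
Log2 values relative to the gene's median (vertical axis) against zeitgeber time in hours (horizontal axis) for 6 genes, with a point per heart and black mean and SD, n = 4; the dark phase is shaded. Ndufs1 and Ndufb5 (blue) are highest at ZT03, with means of 0.16 and 0.17, and Ndufv1, Ndufa2, Ndufa8 and Ndufb10 (red) are lowest at ZT03 and highest at ZT11.

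In the Q module no member of the 5 measured, of 6 in the list, was called in any test. Ndufs3, Ndufs7 and Ndufs8 encode core subunits, the latter pair with iron-sulphur clusters on the path to ubiquinone. Their ZT03 minus ZT11 differences were 0.13 ± 0.047 (SE; limma, adjusted p = 0.186) for Ndufs3, -0.15 ± 0.080 (adjusted p = 0.432) for Ndufs7 and 0.13 ± 0.070 (adjusted p = 0.446) for Ndufs8. Ndufa5, an accessory subunit, had a difference of -0.15 (limma, adjusted p = 0.388). Of the 6 core subunits measured in the N and Q modules, 1 was called higher at ZT03 than at ZT11 and 1 lower. These directions were called for 1.83% and 0.451% of all genes. The median difference over these subunits was 0.077.

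The proximal membrane arm, with 9 of 9 listed members measured, had 1 call, lower at ZT03 than at ZT11 (beside 0.451% of all genes). Ndufa8 encodes an accessory subunit with disulphide-bonded cysteine motifs that faces the intermembrane space, and its promoter window above holds the NRF-1 match. Its hearts read -0.12, -0.12, -0.081 and -0.35 at ZT03 and 0.47, 0.33, 0.35 and 0.073 at ZT11. At ZT07 they read -0.088, -0.056, -0.14 and -0.0020, at ZT15 0.12, 0.25, -0.036 and 0.27, at ZT19 0.17, 0.033, -0.087 and -0.18, and at ZT23 -0.30, -0.015, -0.070 and 0.38. All hearts at ZT03 and ZT07 were below 0 and all at ZT11 above it, while ZT23 spread over nearly the whole range of the gene. ZT03 minus ZT11 was -0.47 ± 0.11 (SE; limma, adjusted p = 0.028), the most negative difference among the members. Ndufa8 was measured by 2 features of the array, which differed by -0.69 and -0.26 in the same direction.

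Other members of the proximal arm lay on both sides of 0. Ndufc2 encodes a small membrane subunit. It read 0.31, 0.23, 0.012 and 0.039 at ZT03 and -0.22, -0.11, -0.11 and 0.021 at ZT11, a difference of 0.25 ± 0.071 that was not called (limma, adjusted p = 0.063). The groups overlapped by the highest ZT11 heart. Ndufa11 differed by -0.25 ± 0.078 (limma, adjusted p = 0.093), Ndufa13 by -0.17 (adjusted p = 0.212) and Ndufs5 by -0.23 ± 0.12 (adjusted p = 0.397). The median over the proximal arm was -0.083.

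The distal membrane arm, with 8 measured members of 12 listed, held calls in opposite directions in different contrasts. Ndufb5 encodes a single-pass accessory subunit. Its hearts read 0.24, 0.13, 0.14 and 0.17 at ZT03, 0.11, 0.010, 0.052 and 0.017 at ZT07, and -0.010, 0.11, -0.093 and -0.067 at ZT11. At ZT15 they read 0.022, -0.13, -0.16 and -0.15, at ZT19 0.14, -0.11, -0.078 and 0.067, and at ZT23 -0.19, -0.011, -0.19 and -0.19. The ZT03 hearts lay above all hearts at ZT07, ZT11, ZT15 and ZT23, and overlapped ZT19 only through its highest heart. ZT03 was 0.28 ± 0.058 (SE) above ZT15 (limma, adjusted p = 0.0262), and the time points differed, with a range of means of 0.32 (limma's F test, adjusted p = 0.0347). The difference from ZT11 was 0.18 ± 0.058 (limma, adjusted p = 0.104), and that of light from dark 0.15 ± 0.033 (adjusted p = 0.0533); neither was called.

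Ndufb10 encodes another accessory subunit of this arm, one that faces the intermembrane space. Its hearts read -0.27, -0.13, -0.18 and -0.11 at ZT03, 0.067, -0.095, -0.0058 and -0.19 at ZT07, and 0.37, 0.14, 0.055 and -0.058 at ZT11. At ZT15 they read 0.11, -0.016, 0.12 and 0.022, at ZT19 -0.18, 0.0058, 0.050 and -0.17, and at ZT23 0.13, 0.087, -0.060 and 0.012. The ZT03 hearts were below all hearts at ZT11, ZT15 and ZT23, but the ZT11 hearts spread widely. ZT03 minus ZT11 was -0.29 ± 0.076 (SE; limma, adjusted p = 0.0444). ZT03 minus ZT15 was -0.23 and was not called (limma, adjusted p = 0.155).

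Further distal-arm subunits kept to non-overlapping groups without passing the test. Ndufb6 read 0.23, 0.13, 0.035 and 0.30 at ZT03 and -0.014, -0.11, -0.24 and -0.062 at ZT11, a difference of 0.28 ± 0.083 (limma, adjusted p = 0.0778). Ndufb3 read 0.14, 0.060, 0.24 and 0.16 at ZT03 and -0.032, -0.15, 0.0024 and -0.12 at ZT11, a difference of 0.22 ± 0.098 (limma, adjusted p = 0.284). Ndufb7, which like Ndufb10 encodes a subunit on the side of the intermembrane space, read -0.19, -0.14, -0.26 and -0.18 at ZT03 and 0.16, 0.17, -0.058 and 0.097 at ZT11, a difference of -0.28 ± 0.081 (limma, adjusted p = 0.0673). Ndufb6 and Ndufb3 thus lay above and Ndufb7 below their ZT11 hearts in all 4 ZT03 hearts. Over all members, 4 had every ZT03 heart above every ZT11 heart (12.1%, beside 4.62% of all genes) and 8 had every ZT03 heart below (24.2%, beside 3.47%). Against ZT15 the counts were 3 above (9.09%, beside 4.62%) and 5 below (15.2%, beside 3.41%).

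**Figure D3:**
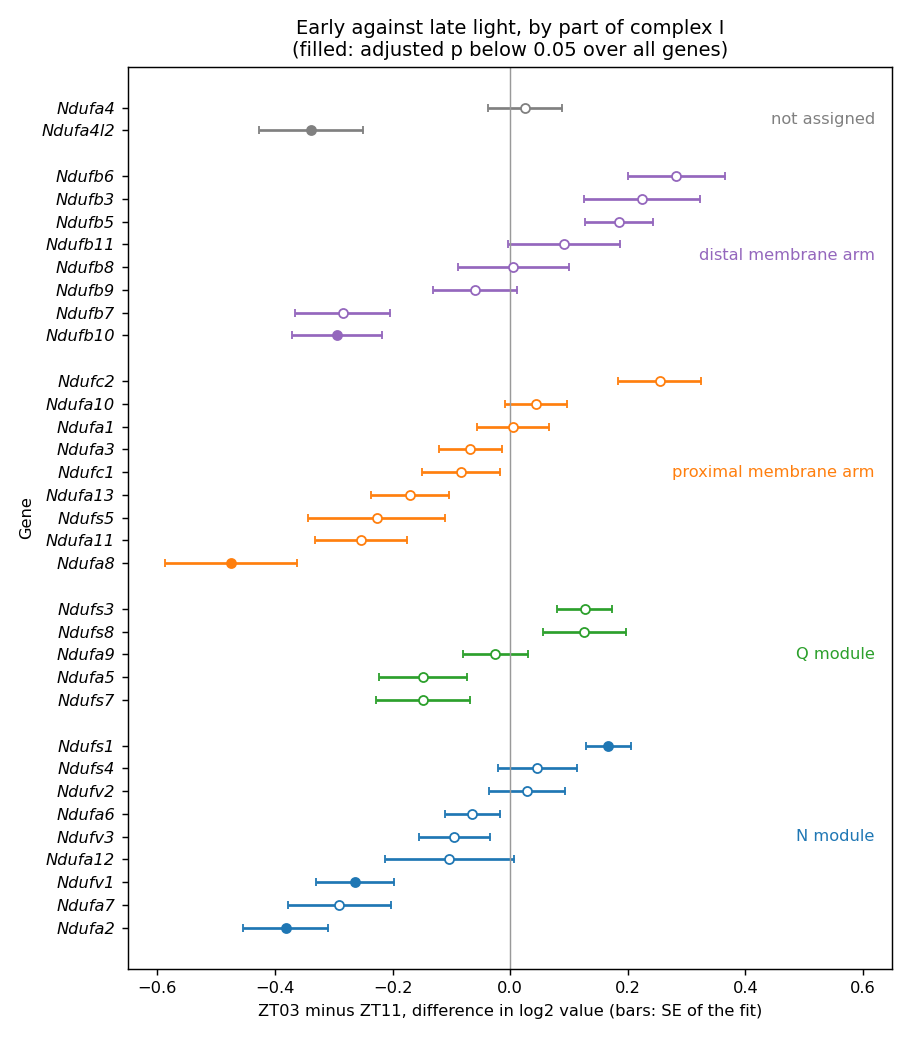
Difference in log2 value between ZT03 and ZT11 (horizontal axis, bars are the SE of the fit) for each of the 33 genes, grouped by part of the enzyme; filled points have an adjusted p below 0.05 over all genes. The N module holds filled points on both sides of 0, from Ndufa2 at -0.38 to Ndufs1 at 0.17, and both membrane arms spread over both sides.

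A pair of members that stand outside the modules differed from each other. Ndufa4 carries the family's name, but its protein was later assigned to complex IV, and Ndufa4l2 encodes its paralog, which is induced by hypoxia and lowers complex I activity. Ndufa4l2 read -0.056, -0.051, -0.30 and -0.11 at ZT03 and 0.35, 0.41, 0.099 and -0.020 at ZT11. At ZT07 its hearts read 0.097, -0.077, -0.035 and 0.047, at ZT15 0.020, 0.15, 0.17 and -0.023, at ZT19 -0.19, 0.077, -0.11 and -0.20, and at ZT23 0.11, 0.15, 0.036 and -0.14. All ZT03 hearts were below all ZT11 hearts, though the lowest ZT11 heart was close. ZT03 minus ZT11 was -0.34 ± 0.089 (SE; limma, adjusted p = 0.0466). This call was lost in 20 of the 24 fits that left out a heart. Ndufa4 differed by 0.025 ± 0.063 (limma, adjusted p = 0.921), and its time points were not called different (limma's F test, adjusted p = 0.976).

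Across the whole family, the signs of ZT03 minus ZT11 were 14 positive and 19 negative, with a median of -0.065. The 6 called differences were 1.12- to 1.39-fold on the log2 scale. At an unadjusted p below 0.05, 6 members were higher (18.2%, beside 8.99% of all genes) and 9 lower (27.3%, beside 5.52%). The comparison of ZT03 with ZT15 called 2 members (6.06%, beside 1.08% of all genes), Ndufs1 and Ndufb5, both higher at ZT03, a direction called for 0.879% of all genes. At an unadjusted p below 0.05, 5 members were higher at ZT03 than at ZT15 (15.2%, beside 7.96% of all genes) and 7 lower (21.2%, beside 5.05%). Its median over members was -0.0093, beside -0.0051 for all genes. The contrasts with ZT11 and ZT15 share the ZT03 hearts, so they are not separate evidence of a member's low or high value at ZT03. The comparison of phases and the test over all time points use these hearts too. Between phases 1 member of 33 was called (3.03%, beside 0.379% of all genes), with a median of 0.025 beside -0.0022. At an unadjusted p below 0.05, 7 members were higher in light (21.2%, beside 6.30% of all genes) and 2 lower (6.06%, beside 4.23%).

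A 24 h rhythm, tested with a cosine and sine pair, was called for 0 of the 33 members by limma, beside 0.0631% of all genes. At an unadjusted p below 0.05 it passed 8 members (24.2%, beside 10.8% of all genes). The member of smallest p was Ndufa8, with an amplitude from mean to peak of 0.18 ± 0.050 (SE) and a fitted peak at 13.4 h (limma, adjusted p = 0.233). Ndufs1 had an amplitude of 0.079 and a fitted peak at 5.29 h (limma, adjusted p = 0.263), and Ndufb5 peaked at 5.20 h (adjusted p = 0.408). The fitted peak of Ndufa5, at 12.9 h (limma, adjusted p = 0.311), fell near that of Ndufa8. The median amplitude was 0.064 over members and 0.032 over all genes.

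The calls rested on few hearts to differing degrees. In 24 fits that each left out a heart, Ndufs1 kept its light and dark difference and Ndufa2 its ZT03 to ZT11 difference in all 24, with largest adjusted p of 0.044 and 0.0396 by limma. Between ZT03 and ZT11 Ndufs1 kept its call in 20, Ndufa8 and Ndufv1 in 17 each, and Ndufb10 in 12. Between ZT03 and ZT15 Ndufs1 kept its call in 20 and Ndufb5 in 18. Over all time points Ndufs1 kept its call in 23, Ndufa2 in 13 and Ndufb5 in 12. The ZT11 heart numbered 1 had the largest SD over all genes, 0.149 against 0.0925 to 0.126 in the others, and the lowest array weight, 0.55. This weight was estimated over all features without regard to time points, and is not the weight used in the alternative fit. Without that heart 1 member was called between ZT03 and ZT11 (Ndufa2). The count was also 1 without the ZT11 heart numbered 3 and without the ZT03 heart numbered 2 or 3. It was 3 without the ZT03 heart numbered 1 or the ZT11 heart numbered 2. The ZT03 to ZT15 count of 2 became 0 without the ZT03 heart numbered 2 or 3 or the ZT15 heart numbered 2 or 4. The count over all time points became 0 without the ZT03 heart numbered 3. The calls over all genes moved too as hearts were left out. They ran from 190 to 747 between ZT03 and ZT11, 25 to 326 between ZT03 and ZT15, and 28 to 467 over all time points.

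The difference between ZT03 and ZT11 was weakly related to gene length. Spearman's rho of the ZT03 minus ZT11 difference with the genomic span of the gene in RefSeq's GRCm38.p6 annotation was 0.29 over the 33 members and 0.18 over 22139 genes. This is a description across genes of the same arrays. The correlation of a heart's values with span averaged 0.091 at ZT03, from 0.011 to 0.13, and -0.077 at ZT11, from -0.24 in the heart numbered 1 to 0.079. Without that heart the ZT11 mean was -0.023. Its part in the differences above was not tested.

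Among genes that assemble complex I or supply its NADH, the calls were all toward higher values at ZT03. Of 17 measured assembly factors, 1 was called higher at ZT03 than at ZT11 (beside 1.83% of all genes) and 0 lower (beside 0.451%). These factors help put the enzyme together and are no part of it, and their median difference was 0.12. At an unadjusted p below 0.05, 7 were higher and 0 lower, in a test that passed 8.99% of all genes as higher and 5.52% as lower. The call was Ndufaf1, a factor of the early membrane-arm intermediate, at 0.13 ± 0.030 (SD, n = 4) at ZT03 and -0.25 ± 0.13 at ZT11, a difference of 0.38 ± 0.065 (SE; limma, adjusted p = 0.00484). Of 10 genes of NADH supply in the mitochondrial matrix, 2 were called higher (beside 1.83% of all genes) and 0 lower (beside 0.451%), with a median of 0.18. Idh3a, a subunit of the NAD-dependent isocitrate dehydrogenase of the citric acid cycle, differed by 0.46 ± 0.076 (SE; limma, adjusted p = 0.00397). Dld, the dihydrolipoamide dehydrogenase shared by the oxoacid dehydrogenase complexes, differed by 0.25 ± 0.046 (limma, adjusted p = 0.00636). These lists were chosen with earlier results of these data known, and the difference between lists was not tested.

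The subunit genes of the other respiratory complexes also held calls in both directions. Of 42 measured genes of complexes II to V, 1 was called higher at ZT03 than at ZT11 (beside 1.83% of all genes). In the same list 4 were called lower (beside 0.451%), and the median was -0.046. In complex III, Uqcrc2, a core protein, was higher by 0.28 ± 0.044 (SE; limma, adjusted p = 0.00339). In complex IV, Cox7a1, the heart and muscle form of a small subunit, had a difference of -0.36 ± 0.067 (limma, adjusted p = 0.00742), and Cox4i1 of -0.30 ± 0.071 (adjusted p = 0.0295). In ATP synthase, Atp5e had a difference of -0.55 ± 0.14 (limma, adjusted p = 0.0423) and Atp5k of -0.31 ± 0.083 (adjusted p = 0.0471), and these calls were lost in 13 and 18 of the 24 fits that left out a heart. Among 14 regulators of mitochondrial biogenesis 1 was called (beside 2.29% of all genes). It was Tfb2m, a mitochondrial transcription factor, at 0.25 ± 0.055 (limma, adjusted p = 0.019). Ppargc1a, a coactivator of these genes, differed by 0.12 ± 0.091 (limma, adjusted p = 0.635).

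**Figure D4:**
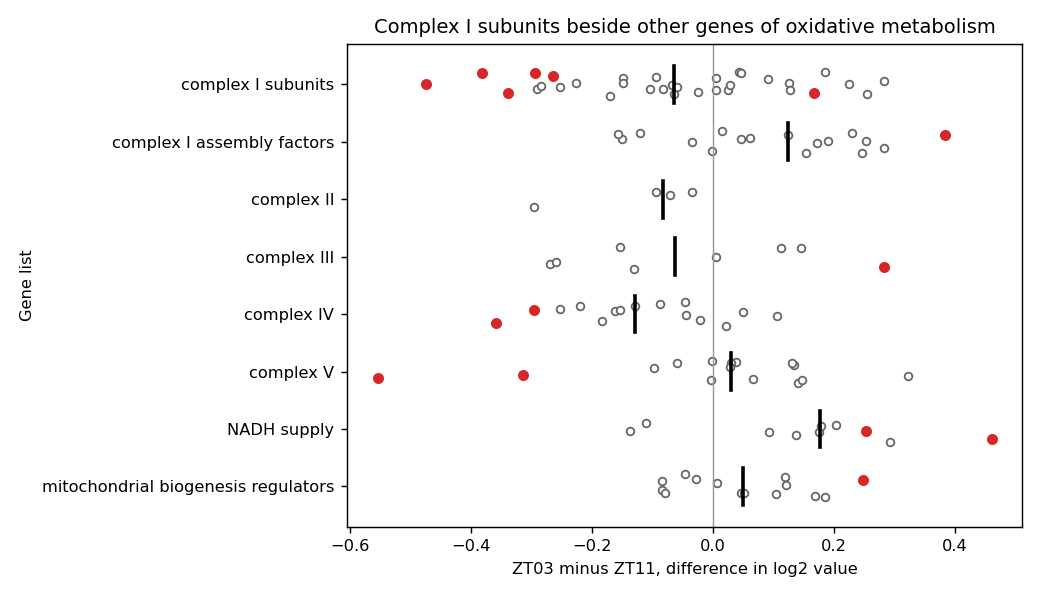
Difference in log2 value between ZT03 and ZT11 (horizontal axis) for the genes of 8 lists of oxidative metabolism (rows), with a point per gene, called genes in red and the list's median as a black bar. The median is -0.065 for complex I subunits, 0.12 for complex I assembly factors and 0.18 for genes of NADH supply.

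The labelled tissue could be checked only coarsely, since centred values hold no level. The number spacing of the deposited values shows which features had values above 8 before centring, and 16 of the 33 members (48.5%) had a feature among them, beside 2.08% of all genes. Of the called members only Ndufs1, Ndufv1 and Ndufa8 were in that class. The shares of members and of all genes given above were not adjusted for it. Of the cardiomyocyte markers 7 of 8 were in that class, of fibroblast markers 1 of 6, of endothelial markers 2 of 5, of adipocyte markers 1 of 5, of atrial markers 1 of 4, and of macrophage, skeletal muscle and smooth muscle markers 0. Of 41 measured markers of 8 cell types or tissues, 2 were called between ZT03 and ZT11 (beside 2.29% of all genes). The cardiomyocyte marker Tnni3 differed by -0.23 ± 0.058 (SE; limma, adjusted p = 0.0378) and the fibroblast marker Dcn by 0.28 ± 0.072 (adjusted p = 0.0434). These calls were lost in 6 and 16 of the 24 fits that left out a heart. List medians ran from -0.065 for smooth muscle to 0.11 for atrial markers, with -0.050 for cardiomyocytes and 0.081 for fibroblasts. The part of these shifts in the complex I differences was not tested.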

How the data were processed

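Expression was measured in 24 hearts on Affymetrix arrays of a single colour, with biotin-labelled cRNA from 500 ng of total RNA (TRIzol), per the labels' protocols. The values the authors deposited are log values, taken here as log2, centred by feature on the median over the 24 arrays (largest absolute feature median 5e-07); their log base, summarization and normalization are not given in the sources used here. If the base were e, every size would be larger, and no p-value would change. Signal over background is unknown, and 4 arrays per time point limit the precision.

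Of 34351 features, 23521 had 1 symbol, 1814 several and 9016 none; only the first were used, averaged by gene. The members had 36 features, and 6 features with several symbols that fit the rule were left out. Tests used limma 3.58.1 in R 4.3.3 on a fit of 6 time-point means, and on a cosine and sine pair of 24 h, with Benjamini-Hochberg adjustment over all 22180 genes at 0.05, and were checked on simulated data. The members, gene lists and contrasts were chosen with earlier results of these data known. Members named are those that passed a test, the 5 of smallest p in each test, the 3 most positive and negative in each contrast, the core subunits and the Ndufa4 pair; of other lists, up to 4 that passed, by p. Ppargc1a, Ndufa7, Ndufa13 and Ndufa12 stand outside that rule and were named after their values were seen. Alternatives were normalization, array weights, robust moderation, feature choice, an SD filter, 12 h terms, a replicate block and leaving out each heart.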

Additional observations from a re-analysis of the deposited data

Results flagged for a closer look

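Single hearts stood far from the others of their time point in 11 of the 114 groups of 4 hearts checked over the 19 named members, where chance marks about 1 in 20, or 5.7. A heart was marked where its gap to the nearest other heart, divided by the range of the group, exceeded Dixon's critical value. The called members were concerned in 4 cases. Ndufa2 read 0.027 in the ZT07 heart numbered 1, beside -0.18 to -0.16 in the others. Ndufa8 read -0.35 in the ZT03 heart numbered 4, beside -0.12 to -0.081, which lies in the direction of its difference. Ndufb5 read 0.022 in the ZT15 heart numbered 1, beside -0.16 to -0.13, and -0.011 in the ZT23 heart numbered 2, beside 3 hearts at -0.19.

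The remaining cases were in members without a call. Ndufv2 read -0.19 in the ZT03 heart numbered 4, beside 0.13 to 0.17, and 0.14 in the ZT11 heart numbered 1, beside 0.0020 to 0.0093. Ndufs5 read 0.14 in the ZT03 heart numbered 2, beside -0.31 to -0.24, and 0.26 in the ZT07 heart numbered 3, beside -0.19 to -0.15. Ndufa4 read 0.22 in the ZT03 heart numbered 4, beside -0.023 to 0.0048. Ndufs3 read -0.087 in the ZT19 heart numbered 2, beside 0.022 to 0.035, and Ndufs7 read -0.051 in the ZT15 heart numbered 1, beside -0.17 to -0.16. The ZT03 heart numbered 4 accounts for 3 of the 11 cases.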

How the results depend on the processing

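No called difference of a named gene reversed its direction under the alternatives run. Among uncalled members, the ZT03 to ZT11 difference of Ndufa4 ran from -0.033 to 0.048 and that of Ndufv2 from -0.0075 to 0.11 as hearts were left out. The count of members called between light and dark was 1, and was 2 after quantile normalization, after subtracting array medians, with array weights and with the replicate block, where Ndufb5 joined Ndufs1 at adjusted p of 0.0494, 0.0485, 0.0422 and 0.046 by limma. With all features tested singly, 2 of the 36 features of members were called between ZT03 and ZT11, with adjustment over 34351 features. This counts features, so it cannot be set directly against the 6 genes called. Under the other settings that kept all hearts, the count of members called between ZT03 and ZT11 lay between 5 and 8. The 24 h rhythm called 0 members under all settings run, 12 h terms included. Leaving out a heart gave 0 to 3 members over all time points (28 to 467 of all genes) and 0 for the 24 h rhythm (3 to 45). Between light and dark it gave 1 to 2 members (51 to 183 of all genes). It gave 1 to 8 between ZT03 and ZT11 (190 to 747), and 0 to 4 between ZT03 and ZT15 (25 to 326). Over all time points the count of members was 1 without the ZT03 heart numbered 1 or 2 or the ZT07 heart numbered 3 or 4. Between ZT03 and ZT15 it was 1 without the ZT03 heart numbered 1 or the ZT15 heart numbered 3, and 4 without the ZT15 heart numbered 1. Between light and dark it was 2 without the first heart at ZT15 or ZT19, the ZT11 heart numbered 3 or the ZT23 heart numbered 2. The causes were not tested.

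Among single genes, the ZT03 to ZT11 difference of Ndufa4l2 missed the threshold after quantile normalization (adjusted p = 0.0554 by limma) and robust moderation (0.0501), and Ndufv1 missed it with the replicate block (0.0601). Ndufb7 passed with the replicate block (0.0259), and Ndufc2 with array weights (0.0469). Both also passed by limma with the SD filter, Ndufb7 at an adjusted p of 0.0457 and Ndufc2 at 0.0472. Hearts of the same number did not vary together: over 60 pairs the correlation of deviations from time-point means averaged 0.0024, with 8 above 0.1, and 7 of 24 hearts correlated best with their own number. Over all genes, 329 were called over all time points, and 218 with the replicate block; 14 had a 24 h rhythm, and 59 with array weights and 74 with 12 h terms; 84 differed between light and dark, and 144 after quantile normalization; 239 differed between ZT03 and ZT15, and 430 with array weights. Leaving out a heart gave 190 to 747 genes between ZT03 and ZT11, where all hearts gave 507.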

Other observations

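Of the 33 members, 3 were measured by 2 features of the array each, and these agree to differing degrees. The features of Ndufa11, an accessory subunit of the membrane arm, gave ZT03 minus ZT11 differences of -0.31 and -0.20, and ZT03 minus ZT15 differences of -0.013 and 0.17. Those of Ndufa12, an accessory subunit of the N module, ran in opposite directions, with 0.11 and -0.31 for ZT03 minus ZT11 and 0.041 and -0.39 for ZT03 minus ZT15, so the averaged value of this gene stands for neither feature. Those of Ndufa8 gave -0.52 and -0.12 for ZT03 minus ZT15. Which transcripts these features read is not given in the sources used here.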
